A study of Mus musculus with 20 samples.

Results

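The unfolded protein response of the endoplasmic reticulum (ER) was followed through 10 genes in mouse hearts that carried or lacked Sorbs2: Atf6, Xbp1, Ddit3, Hspa5, Hsp90b1, Calr, Pdia4, Dnajb9, Sdf2l1 and Herpud1. The genes were named by symbol with earlier results of these data known, and no threshold on their values was applied. All 10 were among the 17243 genes listed at both ages. When unfolded proteins build up in the ER, the chaperone BiP (Hspa5) leaves the sensors ATF6, IRE1 and PERK in its membrane. ATF6 is then cut in the Golgi into a transcription factor, IRE1 splices the mRNA of Xbp1 into its active form, and PERK slows translation and raises ATF4 and, through it, CHOP (Ddit3). ATF6 and XBP1 raise the folding and degradation machinery of the ER, to which the other genes belong. In cardiomyocytes the ER is continuous with the sarcoplasmic reticulum, the calcium store for contraction.

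RNA was sequenced from hearts of 3 wild-type (WT) and 3 Sorbs2 knockout (KO) mice at 6 weeks of age, and of 5 WT, 5 KO and 4 treated KO mice (KO+AAV) at 6 months. The product of Sorbs2 is an adaptor at the Z-disc that links it to actin, and the study is about diastolic dysfunction when it is lost. The KO+AAV mice were Sorbs2 KO mice given AAV9-Tnnt2-Sorbs2, an adeno-associated virus with Sorbs2 behind the cardiomyocyte promoter of Tnnt2, on postnatal day 2. WT and KO mice were untreated, so effects of the vector and of the Sorbs2 it carried cannot be told apart, and the promoter serves cardiomyocytes alone. The sources used here do not give the strain, the sex or how the KO allele was made. The labels name the left ventricle as the tissue, while the extraction text speaks of ventricular myocardium. Nothing in the labels says more of how the replicates were obtained, so p-values measure the spread between these samples.

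Values are the authors' normalised counts, on a scale shared within an age and not between the ages. Sorbs2 itself was 5040.2 ± 369 (SD, n = 5) in WT, 1021 ± 625 (n = 5) in KO and 11016 ± 6763 (n = 4) in KO+AAV hearts at 6 months. At 6 weeks it was 1717 ± 292 (n = 3) in WT and 325 ± 45.3 (n = 3) in KO hearts. Among the KO libraries of 6 months, replicate 1 (1648) and replicate 5 (1755) held more Sorbs2 than the rest (494 to 612). Among the KO+AAV libraries it was higher in replicate 3 (15690.3) and replicate 4 (17923) than in replicate 1 (4696) and replicate 2 (5753). At 6 months every KO total of normalised counts (11359135 to 12222476) was below every WT total (12492381 to 13670340), and at 6 weeks totals ran from 6705133 to 8240294. Xist, the RNA of the inactive X chromosome, was at 100 or more in 0 of the 5 KO libraries of 6 months (4.8 to 15.2), against 2 of the 5 from WT and 2 of the 4 from KO+AAV mice. At 6 weeks 1 of 3 passed that level in either group. Myh6, the main myosin of the adult mouse ventricle, reached 582261 ± 62506 (n = 5) in WT hearts at 6 months.

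ATF6 and XBP1 act through short promoter elements. The promoters of the genes that fell in KO hearts at 6 months, Hspa5 and Herpud1, are therefore shown beside those of Hsp90b1 and Calr, which hold an element of the same family and were called in no comparison. Each sequence is the 250 bases before the RefSeq transcription start (GRCm38.p6), 5′ to 3′ on the gene's strand, with matched elements in capitals.
Hspa5: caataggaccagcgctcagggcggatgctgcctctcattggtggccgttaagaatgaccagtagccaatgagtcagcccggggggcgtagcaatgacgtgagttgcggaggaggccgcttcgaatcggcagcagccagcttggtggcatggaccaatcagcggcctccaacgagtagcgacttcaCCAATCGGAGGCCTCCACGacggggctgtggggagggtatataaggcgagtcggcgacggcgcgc
Herpud1: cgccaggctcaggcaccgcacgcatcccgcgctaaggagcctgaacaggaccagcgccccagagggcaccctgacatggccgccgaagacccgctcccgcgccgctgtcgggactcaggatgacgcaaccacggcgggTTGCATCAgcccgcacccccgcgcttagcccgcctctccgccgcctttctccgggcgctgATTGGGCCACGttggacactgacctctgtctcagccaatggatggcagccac
Hsp90b1: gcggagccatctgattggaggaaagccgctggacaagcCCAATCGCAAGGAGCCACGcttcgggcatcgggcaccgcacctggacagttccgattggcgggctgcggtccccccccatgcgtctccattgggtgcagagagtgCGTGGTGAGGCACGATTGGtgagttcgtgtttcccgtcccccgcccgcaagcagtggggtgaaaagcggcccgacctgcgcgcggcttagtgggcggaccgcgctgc
Calr: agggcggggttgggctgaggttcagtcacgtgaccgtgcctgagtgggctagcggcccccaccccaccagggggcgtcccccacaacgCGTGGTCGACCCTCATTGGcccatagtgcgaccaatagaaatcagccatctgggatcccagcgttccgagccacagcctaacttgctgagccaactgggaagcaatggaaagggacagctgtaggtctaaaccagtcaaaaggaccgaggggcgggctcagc
In this order the windows are chr2:34771840-34772089 (plus strand), chr8:94386179-94386428 (plus strand), chr10:86705445-86705694 (minus strand) and chr8:84846932-84847181 (minus strand). The ER stress response element (ERSE), which pairs a CCAAT box with the core CCACG, was searched on both strands as its full consensus. It was found in Hspa5, 65 to 47 bases before the start, in Calr, and in 2 places in Hsp90b1, once on each strand. That made 3 of the 9 genes with a promoter in the table (Atf6 was not among them), against 35 of 27025 genes (0.13%). Herpud1 had no full ERSE within its window, which ends in a CCAAT box and the first letters of CCACG, spaced as in the ERSE. Bases after the start were not searched, so an ERSE that crosses it would be missed. Herpud1 held the shorter ERSE-II 52 to 42 bases before its start, an element found in 10 of 27025 genes (0.037%). It also held, on the reverse strand, the C/EBP-ATF response element (CARE), TGATGNAA, a site for ATF4 that 3.91% of genes hold. The core of the XBP1 element, TGACGTGG, held by 0.603% of genes, was in none of the 9. It was searched in this form alone, and the Hspa5 window holds it but for the last letter. The core CCACG, which is also the end of both ERSE forms, was in 6 of the 9 and in 31% of genes. A match describes letters and is not a measurement of binding. The 9 genes were chosen as genes of the unfolded protein response, and the elements as those it acts through. The shares beside them are therefore a description and no test of enrichment.

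Among WT hearts the large chaperones were the most abundant of the 10 genes per length of transcript. At 6 months, normalised counts per kilobase of transcript were 2959 ± 625 for Hspa5, 2913 ± 511 for Hsp90b1, also called GRP94, and 2441 ± 145 for Calr, the calcium-binding chaperone calreticulin (n = 5 each), and the ranges of the 3 overlapped. Herpud1, a membrane protein of ER-associated degradation, came next at 1489 ± 166 and lay below every library's value for the chaperones. Xbp1 (409 ± 39.9), Ddit3 (343 ± 121), the disulfide isomerase Pdia4 (240.3 ± 41.2), the BiP cochaperone Dnajb9 (229 ± 71.9), Atf6 (117 to 261 over the libraries) and Sdf2l1 (96.4 ± 21.8), a partner of ER-resident J proteins, followed in this order, each overlapping its neighbour. At 6 weeks, Calr led at 1801 ± 134 per kilobase (n = 3), above Hsp90b1 (999.6 ± 103) and Hspa5 (827 ± 28.0), with no overlap between them. Atf6 was lowest then, at 26.2 ± 1.2 per kilobase, below Dnajb9 (38.2 ± 9.5).

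**Figure D1:**
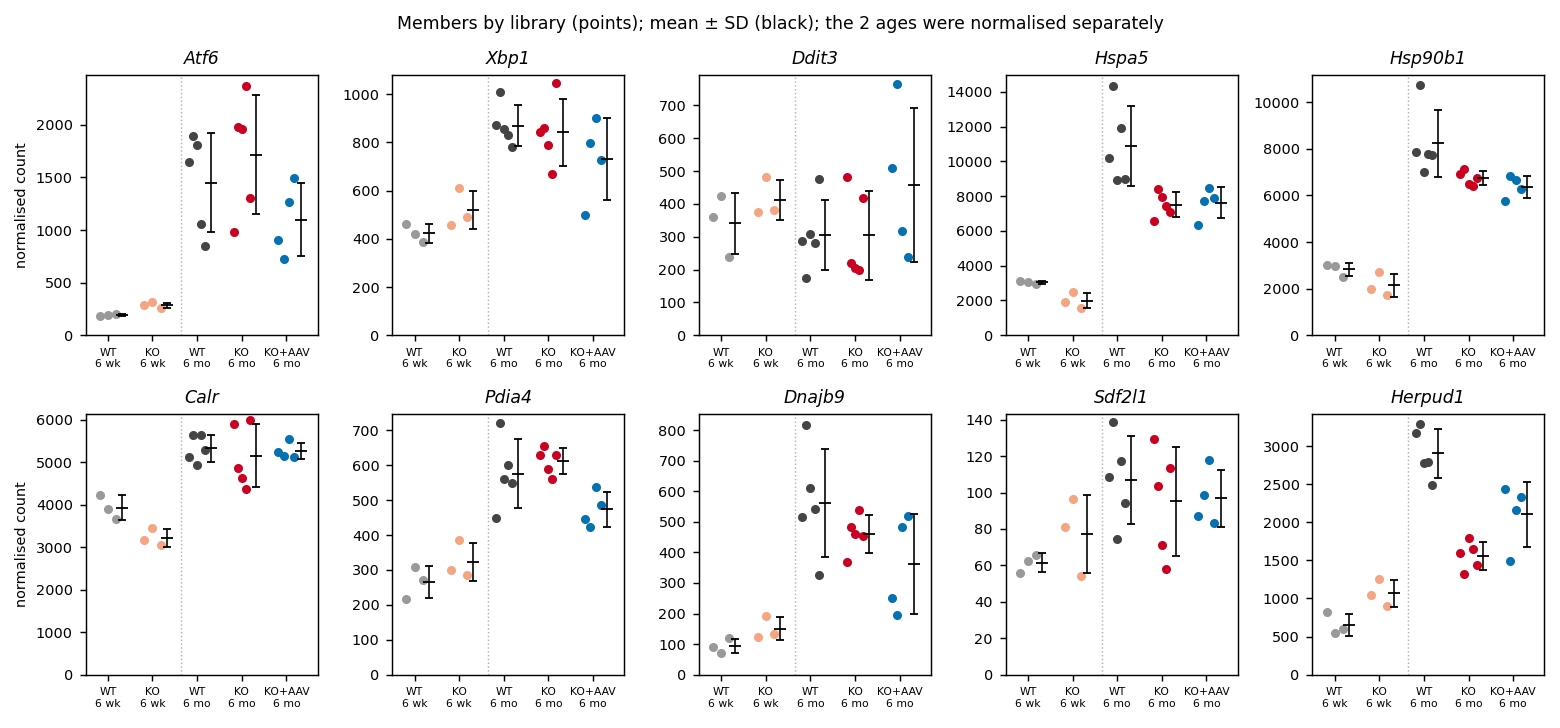
Normalised counts (vertical axis, from 0) of the 10 genes in each library (points) of the 5 groups on the horizontal axis, with the mean ± SD in black; the 2 ages were normalised separately and are not on a common scale. All 5 KO libraries at 6 months lie below all 5 WT libraries for Hspa5 and Herpud1.

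In KO hearts at 6 months, 2 of the 10 genes fell and none rose. Hspa5, the chaperone that binds unfolded proteins and holds the sensors inactive, fell to 69% of its WT mean. Herpud1, which helps bring substrates to the degradation machinery, fell to 53.7%. The other 8 genes did not pass the test. Over all genes tested, 2189 of 13419 (16.3%) were called in this comparison, so 2 of 10 is near the background share, and the median log2 change was -0.13 over the 10 genes and 0.002 over all genes.

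Hspa5 read 10172, 14348, 8929, 11913 and 8970.0 in the 5 WT libraries and 6569, 8427, 7958, 7411 and 7110.1 in the 5 KO libraries. Every KO value was below every WT value, and WT replicate 2 stood highest. The means were 10866 ± 2294 and 7495 ± 724 (n = 5 each), a log2 change of -0.52 (SE 0.15, 95% interval -0.83 to -0.20) with a limma adjusted p of 0.0266. An exact two-sided permutation test of this gene alone gave p = 0.00794, the smallest that 5 against 5 libraries allow. The call was lost without WT replicate 2 (log2 -0.41, adjusted p = 0.0603), WT replicate 4 (-0.48, 0.0663), KO replicate 1 (-0.47, 0.0585) or KO replicate 5 (-0.50, 0.0641), and without both KO replicates 1 and 5 (log2 -0.43, adjusted p = 0.13). It was also lost among the libraries with Y-linked expression alone (log2 -0.55, adjusted p = 0.0655), with the libraries scaled to equal totals (-0.36, 0.116) and after quantile normalisation (-0.27, 0.245).

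Herpud1 read 3176, 3288, 2779, 2800.2 and 2486 in the WT libraries and 1592, 1326, 1799, 1656 and 1434 in the KO libraries. The groups did not overlap, and the gap between them was wider than the range of the KO libraries. The log2 change was -0.90 (SE 0.14, 95% interval -1.20 to -0.59), with a limma adjusted p of 0.00055 and an exact permutation p of 0.00794 (n = 5 in each group). The call held under each of the 25 alternatives run, with changes from -0.98 to -0.74 and adjusted p of at most 0.00627. Groups that did not overlap were found for these 2 genes, and for 13.8% of all genes tested.

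Hsp90b1 and Calr are the other abundant chaperones with a promoter ERSE. Hsp90b1 read 7884, 10733, 6993, 7788 and 7752 in the WT libraries and 6937, 7124, 6499, 6417 and 6736 in the KO libraries. Only WT replicate 3 lay within the KO range, and WT replicate 2 stood far above the rest. Its log2 change of -0.27 (95% interval -0.54 to -0.01) had an adjusted p of 0.16 in limma. Some 15.7% of its exon length overlaps other annotated genes, 10.3% on the opposite strand and 5.4% on its own, and whether counting used strand is not stated in the labels. Calr differed by -0.06 (95% interval -0.30 to 0.19). That range leaves out the fall fitted for Hspa5 (-0.52) but overlaps its interval (-0.83 to -0.20). Pdia4 differed by 0.10 (-0.16 to 0.37).

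The regulators showed no difference that passed the test, and their intervals were wide. Atf6 differed by 0.24 on the log2 scale (95% interval -0.35 to 0.84) and Ddit3, the transcription factor CHOP, by -0.04 (-0.76 to 0.68). Xbp1 differed by -0.06 (-0.39 to 0.27), and the splicing that activates its product was not measured here. Among the cochaperones, Dnajb9 differed by -0.24 (-0.81 to 0.33) and Sdf2l1 by -0.20 (-0.68 to 0.28). With libraries scaled to equal totals, which moved the median of all genes from 0.002 to 0.159, Xbp1 (0.10), Ddit3 (0.11) and Calr (0.10) took the other sign. That scaling called 1775 genes higher and 653 lower, or 73.1% higher, in place of 1091 and 1098, or 49.8%.

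**Figure D2:**
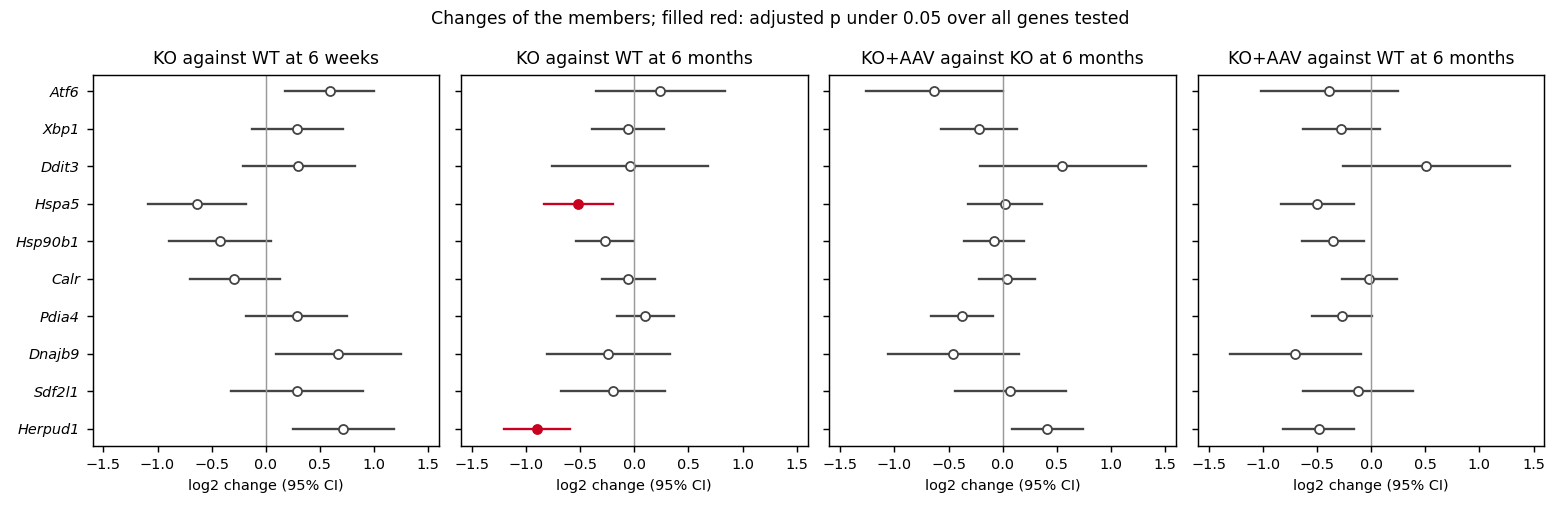
Log2 changes of the 10 genes (points, horizontal axis) with 95% confidence intervals (bars) in 4 comparisons; filled red points have an adjusted p under 0.05 over all genes tested. Hspa5 (-0.52) and Herpud1 (-0.90) at 6 months are the filled points; the KO+AAV comparisons share libraries with the KO comparison.

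At 6 weeks, none of the 10 genes passed the test between 3 KO and 3 WT hearts, although the groups did not overlap for 5 of them. Only 78 of 13242 genes (0.589%) were called at this age by limma, a count that ran from 7 to 163 with each library left out and was 12 without a mean-variance trend. In the fit with all libraries 2045 had an unadjusted p under 0.05, and the groups did not overlap for 21.2% of genes. For 4 of the 10 genes the unadjusted p was under 0.05. Exact permutation tests of single genes could not go below p = 0.1 with 3 against 3 libraries. With equal totals 27 genes were called higher and 9 lower (75.0% higher) in place of 50 and 28 (64.1%).

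Hspa5 read 3137, 3038 and 2931 in WT and 1909, 2463 and 1585 in KO hearts at 6 weeks. All KO libraries were below all WT libraries, as at 6 months, and the KO mean was 65.4% of the WT mean. The log2 change was -0.64 (95% interval -1.09 to -0.18, limma adjusted p = 0.193). Hsp90b1 read 3003, 2980.0 and 2488 in WT and 1993, 2694 and 1729 in KO hearts, with overlap (log2 -0.42, interval -0.89 to 0.05). Calr read 4242, 3901 and 3658 in WT and 3165, 3451 and 3049 in KO hearts, without overlap (-0.29, interval -0.70 to 0.13).

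Herpud1 went the other way at 6 weeks. It read 822, 551 and 596 in WT and 1042, 1261 and 907 in KO hearts, and all KO libraries were above all WT libraries. The log2 difference was 0.71 (95% interval 0.25 to 1.18, limma adjusted p = 0.153). Atf6 read 182.5, 188 and 199 in WT and 284, 312 and 263 in KO hearts, also without overlap (0.59, interval 0.18 to 1.00, adjusted p = 0.178). Dnajb9 did not overlap either, at 91.4, 72.1 and 119 in WT and 123, 192 and 134 in KO hearts (0.67, interval 0.09 to 1.25, adjusted p = 0.255). The remaining 4 genes, Xbp1, Ddit3, Pdia4 and Sdf2l1, overlapped between the groups, with log2 differences of 0.29 to 0.30.

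The difference between the ages was tested directly, as the KO effect at 6 months minus that at 6 weeks. Of the 10 genes, Herpud1 passed: its KO effects of -0.90 and 0.71 differed by -1.61 (SE 0.26, 95% interval -2.14 to -1.08, adjusted p = 0.000873 with limma fits). This call held under each of the 25 alternatives run, with differences from -1.78 to -1.48 and adjusted p of at most 0.0112. Over all genes, 518 of 12709 (4.08%) were called. Hspa5 differed by 0.12 (95% interval -0.41 to 0.65, adjusted p = 0.856), so a difference of up to 0.65 is within the interval. Dnajb9 differed by -0.91 (interval -1.68 to -0.13), which did not pass after adjustment (adjusted p = 0.187). Each age was normalised on its own, so the test compares changes within each table. Beside Herpud1, 3 of 10 endothelial markers were called with a lower KO effect at 6 months than at 6 weeks (median of all 10 -0.97). A higher one was called for 1 of 10 fibroblast and 1 of 10 mural markers. The summed endothelial level at 6 weeks was 11873 to 14844 for WT libraries and 17412 to 22927 for KO libraries. At 6 months it was 21970 to 30188 for WT and 18292 to 27057 for KO libraries. The part of these cells in the Herpud1 difference was not tested.

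**Figure D3:**
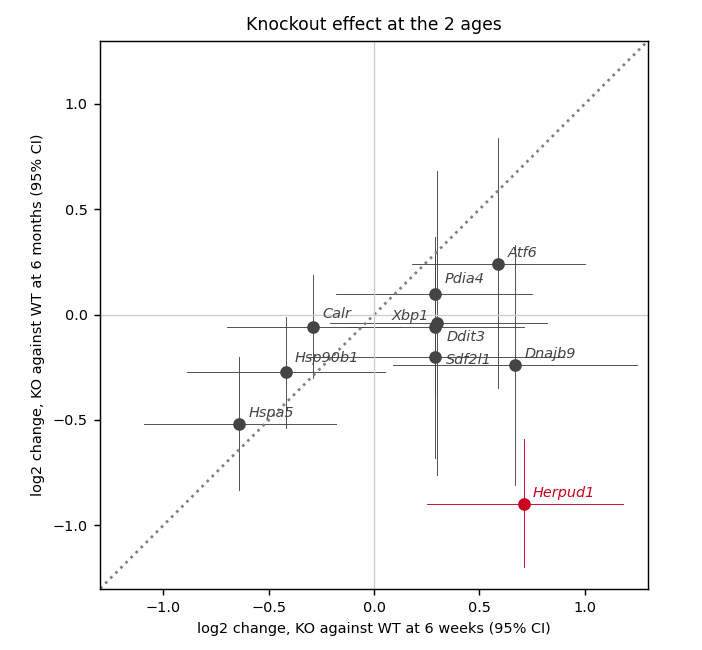
Log2 change of KO against WT at 6 weeks (horizontal axis) and at 6 months (vertical axis) for the 10 genes, with 95% confidence intervals; the dotted line marks equal effects. Herpud1 (red, the gene whose difference between ages passed the test) sits at 0.71 and -0.90, while Hspa5 sits near the line at -0.64 and -0.52.

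In KO+AAV hearts none of the 10 genes passed the test against KO hearts or against WT hearts. Hspa5 had a mean close to that of the untreated KO hearts, and the mean of Herpud1 lay between KO and WT. Against KO, limma called 1509 of 13419 genes (11.2%), and 3975 had an unadjusted p under 0.05, among them 2 of the 10 genes. Against WT it called 178 genes (1.33%), and 2454 had an unadjusted p under 0.05, among them 4 of the 10. These comparisons share their KO or WT libraries with the comparison of KO and WT.

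Hspa5 read 6364, 7707, 8478 and 7909 in the 4 KO+AAV libraries, a mean of 7614 ± 895 beside 7495 ± 724 in KO. The log2 difference from KO was 0.02 (95% interval -0.32 to 0.36). Its upper bound is below the fitted distance of 0.52 between KO and WT. The KO change from WT had an interval of -0.83 to -0.20, however, which includes distances smaller than 0.36. Against WT, KO+AAV hearts differed by -0.50 (interval -0.83 to -0.16, limma adjusted p = 0.131). All 4 KO+AAV libraries were below all 5 WT libraries (exact permutation p = 0.0159, the smallest for 4 against 5). Hsp90b1 read 5747, 6816, 6659 and 6292 in KO+AAV hearts, also below all WT libraries (-0.35, interval -0.64 to -0.07, adjusted p = 0.192).

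Herpud1 read 2441, 1489, 2160.1 and 2339 in the KO+AAV libraries. Replicates 1, 3 and 4 were above all KO libraries and below all WT libraries, and replicate 2 lay within the KO range. The log2 difference from KO was 0.41 (95% interval 0.09 to 0.74, adjusted p = 0.0892, exact permutation p = 0.0635, n = 4 and 5). It passed without KO+AAV replicate 2 (0.57, adjusted p = 0.0172). That library was among the pair of lower Sorbs2 (5753), as was replicate 1 (4696), in which Herpud1 was highest. From WT the difference was -0.48 (interval -0.81 to -0.16, adjusted p = 0.129). Hspa5, Hsp90b1 and Herpud1 were the 3 of 10 genes whose KO+AAV and WT groups did not overlap, against 5.4% of all genes.

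Pdia4, which forms and exchanges disulfide bonds in the ER, was the only one of the 10 whose KO+AAV and KO groups did not overlap, against 14.1% of all genes. It read 446, 424, 537.5 and 487 in KO+AAV and 629.6, 655, 590.3, 562 and 630.0 in KO hearts. The log2 difference was -0.38 (95% interval -0.66 to -0.09, adjusted p = 0.0775, exact permutation p = 0.0159, n = 4 and 5). Atf6 read 906, 726, 1263 and 1497 in KO+AAV and 979.5, 1976.5, 1955, 2368 and 1302 in KO hearts, with overlap (-0.63, interval -1.26 to 0.00, adjusted p = 0.17). Without KO replicates 1 and 5, which held the lowest Atf6 of the KO group, that difference passed (-0.99, adjusted p = 0.0441). With the transcript-length index as a covariate it turned to 0.09 (adjusted p = 0.859). Dnajb9 was -0.70 from WT (SE 0.28, adjusted p = 0.228), and its 4 KO+AAV libraries read 251, 195, 482.5 and 520.0. Xbp1, Ddit3, Calr and Sdf2l1 had intervals that held 0 in both comparisons. Equal totals changed the share of higher calls over all genes from 49.4% to 33.9% against KO and from 46.1% to 65.8% against WT.

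Within the groups at 6 months, Atf6 and Dnajb9 varied together from library to library, and Ddit3 varied in the opposite direction. Ddit3 read 481 and 418 in KO replicates 1 and 5 and 199.6 to 219 in the other KO libraries, where Atf6 read 979.5 and 1302 against 1955 to 2368. The same opposition held in WT replicate 5, with the highest Ddit3 (475) and lowest Atf6 (846) of its group, and in KO+AAV replicate 2 (764 and 726). Over the 14 libraries, after removal of group means, Pearson's r between Atf6 and Ddit3 was -0.89 (permutation p = 0.00016, adjusted over 45 pairs 0.0024) and Spearman's rho -0.86 (p = 0.0003). It was -0.84 without the 2 libraries farthest out in Atf6. Between Atf6 and Dnajb9 r was 0.82 (p = 5e-05, adjusted 0.00202, rho 0.85 with p = 3e-05, r 0.77 without 2 libraries), and between Ddit3 and Dnajb9 -0.87 (p = 9e-05, adjusted 0.00202, rho -0.89 with p = 0.00016, r -0.83 without 2). Of the 45 pairs, 5 passed.

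Calr and Sdf2l1 also varied together (r 0.86, permutation p = 0.00179, adjusted 0.0201, rho 0.81 with p = 0.0105, r 0.85 without 2 libraries). For Hsp90b1 and Sdf2l1 r was 0.64 (p = 0.00405, adjusted 0.0364, rho 0.70 with p = 0.00398, r 0.56 without 2). Hspa5 and Hsp90b1 gave r 0.78 (p = 0.0115, adjusted 0.0579, rho 0.69 with p = 0.0137), which fell to 0.47 without 2 libraries and so rests on them. Hsp90b1 ranked 71 of 13418 genes in likeness to Hspa5 by r at 6 months. The 8 genes most like Hspa5 by this measure over the 14 libraries were Actr3 (r 0.91), Mapre1 (0.89), Plekho2 (0.89), Emd (0.87), Gnai3 (0.87), 6530402F18Rik (0.87), Fermt2 (0.87) and Rnf24 (0.86), none of them among the 10 genes. Over the 6 libraries at 6 weeks, Hsp90b1 ranked 57 of 13241 (r 0.95), and the 8 most like Hspa5 were all other genes. These ranks were not tested.

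The libraries differed in how genes with long and short transcripts read, and the spread of Atf6, Dnajb9 and Ddit3 moved with that difference. An index was taken as the median log2 deviation of 1584 genes with transcripts of at least 6000 bases minus that of 1368 genes with transcripts of at most 1500 bases. WT libraries ran from -0.44 to 0.43, KO libraries from -0.23 to 0.58 and KO+AAV libraries from -0.47 to -0.10. Within groups it correlated with Atf6 (transcript 7246 bases) at r 0.85 (permutation p = 0.00026, adjusted over 10 genes 0.0019, rho 0.88 with p = 0.00025, r 0.75 without 2 libraries). For Dnajb9 (2461 bases) r was 0.67 (p = 0.00038, adjusted 0.0019, rho 0.75 with p = 0.00018, r 0.74 without 2). For Ddit3 (890 bases) r was -0.78 (p = 0.00103, adjusted 0.00343, rho -0.74 with p = 0.00289, r -0.82 without 2). By their lengths, Atf6 and Ddit3 are themselves among the long and short genes of the index. Hspa5 (r 0.61, permutation p = 0.0435, adjusted 0.109, r 0.67 without 2) and Calr (r -0.53, adjusted 0.206, r -0.28 without 2) did not pass. With the index as a covariate, an alternative chosen after the data were seen, the KO difference at 6 months was -0.21 for Atf6, 0.47 for Ddit3, -0.66 for Hspa5 (adjusted p = 0.00247) and -0.95 for Herpud1 (adjusted p = 0.000482), the latter 2 still called. The part of the index in the spread of these genes was not tested further.

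**Figure D4:**
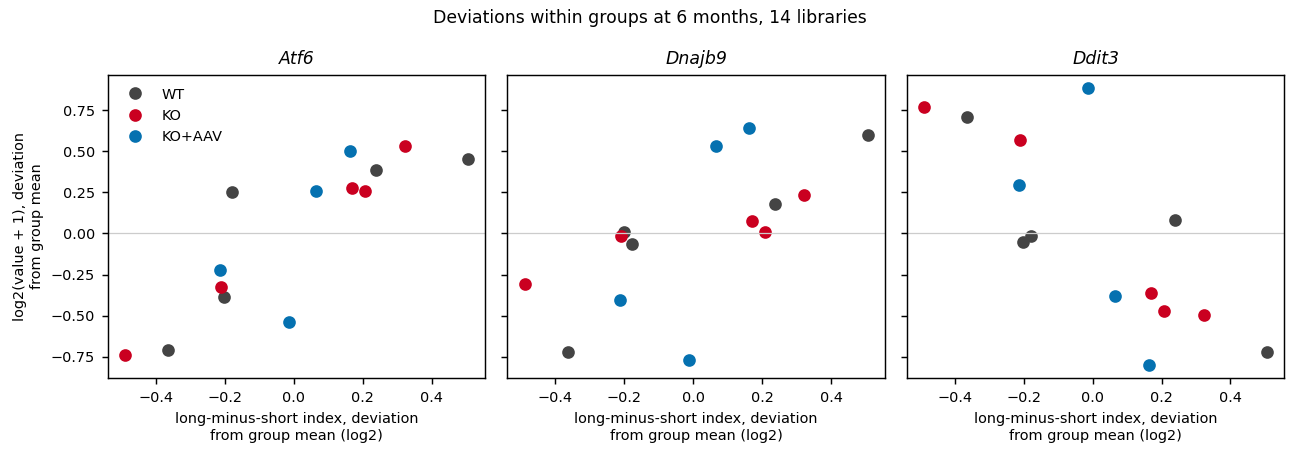
Deviation of log2(value + 1) from the group mean for Atf6, Dnajb9 and Ddit3 (vertical axis) against the deviation of the long-minus-short transcript index (horizontal axis, log2), for the 14 libraries at 6 months coloured by group. Atf6 and Dnajb9 rise with the index (r 0.85 and 0.67) and Ddit3 falls (r -0.78).

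Other genes of the ER and the secretory pathway were described through 8 lists, none of which holds the 10 genes. In KO hearts at 6 months, 11 of 160 tested genes rose and 4 fell, beside 16.3% of all genes called in either direction. No gene of 16 tested among the sensors and their processing proteins passed, and none of 22 in ER-associated degradation, the pathway of Herpud1. Of 25 further ER chaperones and cochaperones, 3 rose and none fell, with a median of 0.13. These were Serpinh1, the collagen chaperone HSP47 (from 3220.0 ± 379 to 4722 ± 948, log2 0.54, adjusted p = 0.0177), Fkbp10 (0.53), a prolyl isomerase that also serves collagen, and the cyclophilin Ppic (0.64). Of 17 disulfide isomerases and oxidases, Qsox1 (0.70) and Txndc5 (0.45) rose and Tmx1 (-0.63) and Txndc12 (-0.45) fell. Of 25 alternatives, the call was lost in 10 for Txndc12 (to -0.29, adjusted p up to 0.248), in 7 for Tmx1 (to -0.38, up to 0.177), in 3 for Serpinh1 (to 0.34, up to 0.132), in 2 for Txndc5 and in 1 for Qsox1.

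Of 22 genes of the PERK branch and ATF4 targets, 2 rose and none fell, with a median of 0.00. Mthfd2, a mitochondrial enzyme of one-carbon metabolism, rose from 36.1 ± 15.7 to 111.5 ± 28.2 (n = 5 each, log2 1.68, adjusted p = 0.002). Nupr1, a small stress-induced chromatin protein, rose from 65.7 ± 18.1 to 264 ± 187 (1.75, adjusted p = 0.00521). The serine synthesis genes Phgdh (0.71, adjusted p = 0.0544) and Psat1 (0.64, adjusted p = 0.0678) did not pass. In KO+AAV hearts Mthfd2 read 79.0 to 175 (mean 130.1, n = 4), 0.18 from KO and 1.85 from WT, the latter called. At 6 weeks 1 of these 22 genes was called, Ddit4, an inhibitor of mTORC1, at 230 ± 122 in WT and 836 ± 194 in KO hearts (n = 3 each, 1.99, adjusted p = 0.0373). The call was lost in 7 of 16 alternatives (changes from 1.51 to 2.37, adjusted p up to 0.203), among them without any of 4 single libraries. Ddit4 is named after its values were seen, and at 6 months it differed by -0.24 (adjusted p = 0.78).

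In translocation into the ER and N-glycosylation, 1 of 26 genes was called, Spcs3, a subunit of the signal peptidase. It rose from 833 ± 243 to 1698 ± 198 in KO hearts (n = 5 each, log2 1.07, adjusted p = 0.00164) and read 633 ± 146 in KO+AAV hearts (n = 4, -1.44 from KO, adjusted p = 0.00104). Of 19 genes of KDEL retrieval and transport to the Golgi, Kdelr3, a receptor that returns ER chaperones such as BiP (0.76), and the COPII coat gene Sec23b (0.54) rose. The Sec23b call was lost in 13 of 25 alternatives (0.32 to 0.70, adjusted p up to 0.197) and that of Kdelr3 in 6 (0.49 to 0.96, up to 0.172). Of 13 calcium proteins of the sarcoplasmic reticulum, Casq1, the calsequestrin of skeletal muscle, rose from 186 ± 54.9 to 2353 ± 1322 (n = 5 each, log2 3.55, adjusted p = 1.6e-05), while Hrc (-0.91) and Asph (-0.35) fell. The Asph call was lost in 14 of 25 alternatives (-0.41 to -0.19, adjusted p up to 0.268), those of Hrc and Casq1 in none. At 6 weeks Casq1 was also called (2.62).

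From KO to KO+AAV, these lists held 8 calls downwards and 1 upwards, beside 11.2% of all genes called. The calls downwards were Creb3l2 (-1.50), a transcription factor related to ATF6, Qsox1 (-0.77), Txndc5 (-0.48), Tmx4 (-0.78), the Herpud1 relative Herpud2 (-0.64), Spcs3, the COPII gene Sec24d (-0.80) and Casq1 (-2.25). The call upwards was Hrc (0.72). Of 24 alternatives, the call was lost in 9 for Creb3l2 (to -0.53, adjusted p up to 0.395) and for Herpud2 (to -0.33, up to 0.29), in 8 for Tmx4 (to -0.34, up to 0.25) and for Txndc5 (to -0.38, up to 0.0944). It was lost in 5 for Sec24d (to -0.37, up to 0.174), 4 for Qsox1 and 2 for Hrc, and in none for Spcs3 and Casq1. The smallest changes of Creb3l2, Herpud2, Tmx4 and Sec24d came with the transcript-length index as a covariate. Medians were below 0 in all 8 lists, from -0.29 in KDEL retrieval and transport to -0.05 in the sarcoplasmic reticulum and translocation lists, beside 0.00 over all genes.

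**Figure D5:**
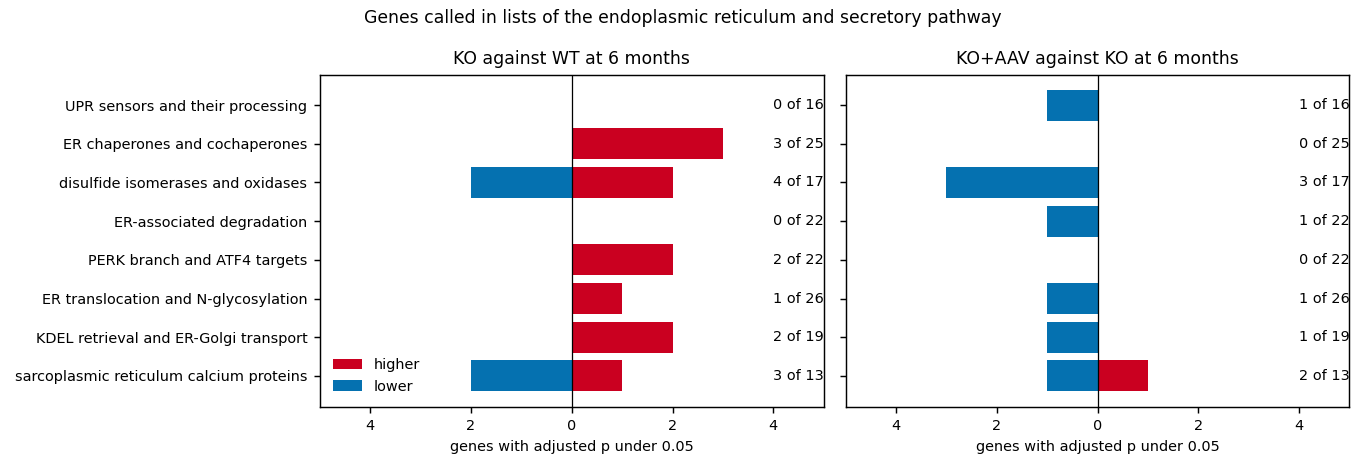
Number of genes with an adjusted p under 0.05 (bars, higher to the right and lower to the left) in 8 lists of ER and secretory pathway genes, with the number called of the number tested at the right. In KO against WT the chaperone list holds 3 genes, all higher, and in KO+AAV against KO the disulfide list holds 3 genes, all lower.

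Markers of the cell types of the heart moved with the groups as well. In KO hearts at 6 months, 3 of 10 cardiomyocyte markers fell and none rose (median -0.57), and their summed level ranged over 1243997 to 1504975 for WT, 751051 to 1046653 for KO and 1068660 to 1683606 for KO+AAV libraries. Myh6 alone made up a large part of these sums, with means of 582261 in WT, 265776 in KO and 521508 in KO+AAV hearts. Of 10 fibroblast markers, 6 rose and none fell (median 0.74), with sums of 30599 to 45639 for WT, 42930 to 59357 for KO and 32472 to 43761 for KO+AAV libraries. Macrophage markers had 1 of 10 higher, Fcgr1 (sums of the list 3884 to 6315 in KO and 3395 to 5951 in WT), a call lost in 15 of 24 alternatives (0.61 to 1.13, adjusted p up to 0.236). None of 10 endothelial and 6 tested B and plasma cell markers was called. Of 10 mural cell markers 1 rose and 2 fell. Among the called markers Myh6 was lost in 3 of 25 alternatives, Tnni3 in 4 and the mural marker Abcc9 in 6. No marker of these lists was at 0 throughout a group. In whole tissue, fewer cells of a type and less RNA per cell cannot be told apart, and the part of cell composition in the changes of Hspa5 and Herpud1 was not tested. At 6 weeks no marker of the 6 lists was called, and the cardiomyocyte sums overlapped narrowly (WT 441219 to 653570, KO 363430 to 442190).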

How the data were processed

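RNA of 20 mouse hearts in 5 groups was measured by stranded poly(A) sequencing, per the labels' protocols. Each age has its own table of normalised counts deposited by the authors, a signal with fractional values on 1 scale per table. The build was mm10, per the submitters' processing notes; the aligner, counter and annotation were not given in the sources used here. Of the values below 15, 83.7% to 93.8% per library at 6 months and 53.9% to 90.9% at 6 weeks were whole multiples of a library's step within 0.1, so reads were not recovered, and no counting interval is given. The tables list 18657 and 17808 genes, and 0 columns of values were left out.

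Values were taken as log2(value + 1), so changes of low genes are understated. Genes with at least 10 in 4 libraries (6 months) or 3 (6 weeks) were tested with limma 3.58.1 in R 4.3.3, two-sided, with a mean-variance trend, the 3 groups at 6 months in 1 model, and Benjamini-Hochberg adjustment over all genes tested at a threshold of 0.05. Effects at the 2 ages were compared by their difference over the combined standard error, with Welch-Satterthwaite degrees of freedom. Exact permutation tests, two-sided, served for single genes, and correlations by 100000 permutations. Python 3.11.15, pandas 2.3.3, numpy 2.4.6, scipy 1.17.1 and matplotlib 3.10.9 served for the rest. The fit was tested on simulated data.

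Promoters came from RefSeq (GRCm38.p6), in which 9 of 10 genes were found, and transcript lengths from GENCODE of the same build. The length of a gene was that of its longest protein-coding transcript. Columns of the 6-week table were matched to groups, not to single samples, by name. The genes and the 14 lists were chosen with earlier results of these data known. Named genes are the 10, Sorbs2, up to 4 genes per list of smallest p for KO against WT and up to 2 for KO+AAV against KO at 6 months, up to 3 markers per cell type, and the 8 most like Hspa5; exceptions are marked. List symbols Igkc and Ighm had no entry in the tables under any listed synonym, and 5 others were found under an older symbol. For all comparisons, alternatives covered pseudocounts of 0.5 and 10, no filter and a filter at 50, 3 scalings, moderation, and each library left out. At 6 months they also covered replicate block, the class by Xist or Y-linked genes (covariate, or Y-linked libraries alone) and the 2 compared groups alone. KO replicates 1 and 5 were left out together where KO was compared. The transcript-length index as a covariate, chosen after the data were seen, was run within each age. The difference between ages was not refitted in these further ways.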

Additional observations from a re-analysis of the deposited data

Results flagged for a closer look

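Hsp90b1 in WT replicate 2 at 6 months (10733) stood far from the other 4 WT libraries, with a gap of 0.762 of the group's range to the nearest, above Dixon's value of 0.71; of 33 groups tested this way 1 was marked, and chance marks about 1 in 20. Hspa5 was highest in the same library (14348). Without that library the Hspa5 change was -0.41 in place of -0.52 and was no longer called (adjusted p = 0.0603).

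The KO effect differed between 6 months and 6 weeks for Herpud1 (log2 difference -1.61, adjusted p = 0.000873), which was lower in all 5 KO libraries at 6 months and higher in all 3 at 6 weeks than in any WT library of the same age. It also differed for Ddit4 (-2.23, adjusted p = 0.0198), for Tmbim6 (-0.78, adjusted p = 0.0483), a membrane protein that restrains IRE1, for the fibroblast marker Mfap5 (1.31, adjusted p = 0.036) and for the mural marker Cspg4 (1.16, adjusted p = 0.0307), all from limma fits. Tmbim6 read 1179 ± 127 in WT and 1688 ± 86.3 in KO hearts at 6 weeks (n = 3 each), and 3128 ± 376.5 and 2608 ± 256 at 6 months (n = 5 each). Of 25 alternatives, the call was lost in 18 for Tmbim6 (adjusted p up to 0.198), in 11 for Mfap5 (1.06 to 1.53, up to 0.0932), in 6 for Cspg4 (0.93 to 1.38, up to 0.148), in 4 for Ddit4 (-2.61 to -1.75, up to 0.0723) and in none for Herpud1.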

How the results depend on the processing

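Of the 10 genes, 2 were called in KO against WT at 6 months; 1 was called with equal totals, with quantile normalisation, among Y-linked libraries alone and without KO replicates 1 and 5, and 1 to 2 with each library left out (1 without WT replicate 2 or 4 or KO replicate 1 or 5). Where 1 was called it was Herpud1, and Hspa5 was lost. In KO+AAV against KO the count was 1 without KO replicates 1 and 5, and 0 to 1 with each library left out. The numbers in the labels did not pair the libraries: 7 of 13 like-numbered pairs correlated above 0.1 (-0.391 to 0.253) and 0 were best matches. With a replicate block, 2, 0 and 0 of the 10 genes were called in the 3 comparisons at 6 months, and 2071, 1764 and 183 of all genes; the block changed no call among the 10, and in KO against WT it ended those of Asph and Txndc12. At 6 weeks no block could be fitted, since the columns carry no replicate number of the labels.

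Counts over all genes moved more. For KO against WT at 6 months (2189) the count was 1402 without KO replicates 1 and 5 and 3381 with the transcript-length index as a covariate. For KO+AAV against KO (1509) it was 335 among Y-linked libraries, 542 with the Xist or Y-linked class as a covariate, 854 with the index, and 568 to 1816 with each library left out (568 without KO+AAV replicate 1, 855 without KO replicate 5). For KO+AAV against WT (178) it was 46 among Y-linked libraries, 102 with the 2 groups alone, and 107 to 472 with each library left out (472 without WT replicate 5, 107 without KO+AAV replicate 3, 109 without WT replicate 1, and 115 without WT replicate 2 or KO+AAV replicate 1). At 6 weeks (78) it was 36 with equal totals, 12 without a trend, 325 with the index, and 7 to 163 with each library left out (WT: 9, 49 and 127; KO: 7, 9 and 163). The difference between ages (518) ranged from 205 to 585, with 205, 229 and 263 without single 6-week libraries. With libraries left out, some of these counts fell and others rose. Fits with fewer libraries have less power, and the causes of these moves were not tested.

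Uncalled genes changed sign as follows. KO against WT at 6 months gave, with equal totals, 0.10 for Calr, 0.11 for Ddit3 and 0.10 for Xbp1; with quantile normalisation, 0.13 for Calr; among Y-linked libraries, -0.12 for Atf6 and 0.18 for Ddit3; with the class covariate, 0.06 for Ddit3; with the index, -0.21 for Atf6, 0.02 for Calr and 0.47 for Ddit3; and with each library left out, -0.23 to 0.14 for Ddit3 and -0.14 to 0.02 for Xbp1. KO+AAV against KO gave, with equal totals, -0.04 for Calr, -0.06 for Hspa5 and 0.00 for Sdf2l1; with quantile normalisation, -0.06 for Calr and -0.15 for Hspa5; among Y-linked libraries, -0.01 for Sdf2l1; with the block, -0.02 for Hspa5; without KO replicates 1 and 5, -0.06 for Hspa5; with the index, 0.09 for Atf6, -0.08 for Calr, -0.25 for Ddit3, 0.08 for Dnajb9, 0.01 for Hsp90b1 and -0.14 for Sdf2l1; and with each library left out, -0.01 to 0.10 for Calr, -0.03 to 0.10 for Hspa5 and -0.09 to 0.20 for Sdf2l1. KO+AAV against WT gave for Calr 0.06 with equal totals, 0.06 with quantile normalisation, 0.01 with the block and -0.04 to 0.01 with each library left out. Between ages, leaving libraries out gave -0.03 to 0.29 for Hspa5 and -0.38 to 0.08 for Sorbs2.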
